A study of Rattus norvegicus with 28 samples.

Results

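Subunits of the chloride channels that GABA opens were followed across the pain-modulating regions of adult male rats that had been injected in a hindpaw as pups. They were the genes Gabrd (the delta subunit), Gabre (epsilon), Gabrq (theta) and Gabrr1 (rho1). Every feature of the array that the platform annotation gives to one of these genes was taken, which made 5 features (Gabrd 73, Gabre 60 and 74, Gabrq 59, Gabrr1 57) of 4 genes, out of 228 features and 156 named genes. Each of 28 custom oligonucleotide arrays compared, as 2 dyes, an injected animal with an uninjected control of the same region. The injected animals had received 0.25% carrageenan, a seaweed polysaccharide that inflames tissue, in 0.9% saline at 1 µl/g, or saline, into the left hindpaw as pups of postnatal day 3, and were grown to day 59. Arrays labelled PAG, which usually stands for the midbrain's periaqueductal grey, comprised 5 of carrageenan and 5 of saline animals, and those of RVM, the usual abbreviation of the rostral ventromedial medulla, 5 of carrageenan and 4 of saline animals. The lumbar dorsal horn (LDH), where the spinal cord receives input from the hindlimb, gave 5 arrays of the injected (left) side and 4 of the right side, all from carrageenan animals. The labels give neither a strain nor separate animals for the arrays of a group, so p-values rest on the variation among arrays, part of which may be technical.

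GABA-A receptors are chloride channels built of several subunits, and the kinds of subunit set where on the neuron a receptor sits and how it responds. Delta-containing receptors lie mostly outside synapses and carry a steady, tonic inhibition. Epsilon and theta are rarer subunits, known from monoamine cell groups of the brain stem and from the hypothalamus. In the PAG and RVM, GABA neurons hold back the cells that project down to the spinal cord, and in the dorsal horn GABA neurons limit the relay of signals from the paw.

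Values are log2 ratios, injected over uninjected, so 0 means equal signal. The deposited table does not state base, centring or direction: base 2 was inferred from the range of -13.245 to 10.459, array medians lay between -0.061 and 0.083, and the direction is the likely one, since the labels give the injected animal the same dye on every array. Of 348 pairs of arrays that shared at least 15 measured features, 311 correlated positively and 7 had r below -0.3 (lowest -0.511). These correlations bear on whether single arrays were turned, not on the direction that all arrays share, which rests on the labels' dyes alone. With no dye swap, a dye effect and an effect of injection cannot be told apart in a ratio against the uninjected control. An exact 0, which made up 55.9% of all values, was taken as not measured. Arrays measured between 7 and 195 features, and 4 arrays measured fewer than 40. Only 2 of 22 cell type markers (Slc6a4 and Slc6a2) are on the array, and a ratio within a region gives no level, so the dissected tissue could not be checked against markers. In bulk tissue, fewer cells of a type and less RNA per cell cannot be told apart.

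No subunit feature passed an adjusted p of 0.05 in any of 12 comparisons, fitted with limma across all features and adjusted by Benjamini-Hochberg. A test required 3 or more measured arrays in every group fitted, which gave 39 tests of subunit features out of a possible 60. The smallest adjusted p among them was 0.109, for Gabrq in PAG carrageenan over uninjected, which also had the only unadjusted p below 0.05 of the 39. Exact permutation, run feature by feature in all comparisons but the interaction, also called 0. Before adjustment, the smallest p it allows a subunit feature is 0.00794 to 0.0286 between groups. Against uninjected controls it is 0.0625 to 0.25, so the test could say little. What the subunits did show was a contrast in the size of their ratios. Gabrr1 lay close to 0 on nearly all arrays, while Gabrd and Gabre each had isolated arrays with very large ratios. Gabrr1 also had isolated arrays, at -1.40 and -2.39, and its SD over all arrays (0.578) was above that of Gabrq (0.552).

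The 5 features of the chosen subunits were measured more often than most features, while the 9 other channel subunits on the array were measured on 4 to 20 arrays. Gabrq was measured on 27 of 28 arrays, a number that 2 features exceeded, Gabre on 24 (feature 74) and 19 (feature 60), Gabrr1 on 23 and Gabrd on 20, against a median of 10.5 arrays over all 228 features. By group, 100% of the subunit values were measured in PAG carrageenan and 68.0% in PAG saline, 60% in RVM carrageenan and 100% in RVM saline, and 96.0% in the left and 60% in the right LDH. Over all features the shares ran in the same order within each region, at 65.3% and 35.4% in PAG, 30.6% and 63.8% in RVM, and 45.8% and 23.8% in LDH. PAG saline array 5, which measured 33 features in all, had a ratio for none of the 5, and LDH right array 1, which measured 7, had one for Gabrq alone.

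**Figure D1:**
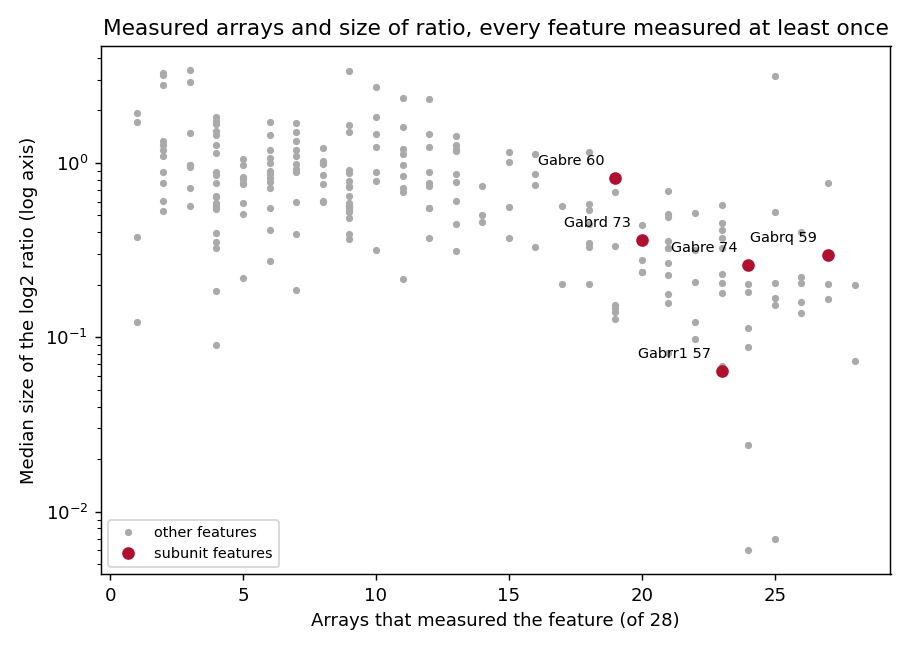
Each point is a feature measured on at least 1 array, with the number of measured arrays on the horizontal axis and the median size of its log2 ratio, sign ignored, on a logarithmic vertical axis. The 5 subunit features (red) lie at 19 to 27 measured arrays. Gabrr1 has a median size of 0.064 and Gabre feature 60 one of 0.822.

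Gabrd, the delta subunit of tonic inhibition, had a wider range of ratios in PAG and RVM than in the dorsal horn. Its SD over all arrays (2.18) was below that of Gabre feature 60 (2.45). In PAG carrageenan its values on arrays 1 to 5 were 0.13, -2.49, -2.71, -0.98 and 0.013. In PAG saline it was measured on 2 of 5 arrays, at 0.53 and 5.35. The groups did not overlap, but with 2 saline arrays the comparison was not tested with the main settings. Of the 78 features that were tested, with at least 3 measured arrays per group, 3.85% did not overlap. That share is not like for like, since groups of fewer arrays fail to overlap more easily. With at least 2 measured arrays per group, the difference was -4.14 (95% interval -7.62 to -0.67, unadjusted p = 0.0263, limma adjusted p = 0.329), and with exact zeros kept as a ratio of 0 it was -2.38 (limma adjusted p = 0.514). The saline value of 5.35 was the largest of the 94 ratios on PAG saline array 3, whose SD was 0.674.

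In RVM the delta subunit had values of 0.16, -1.55 and -0.20 on the carrageenan arrays that measured it, 1, 2 and 3. The RVM saline arrays 1 to 4 gave 6.46, -0.65, 0.27 and 0.12, so that 1 saline array stood far above all others and the other 3 lay within the range of the carrageenan arrays or close to it. The carrageenan mean was -0.53 ± 0.90 (SD, n = 3) and the saline mean 1.55 ± 3.30 (n = 4). The difference of -2.08 (95% interval -6.46 to 2.30, limma adjusted p = 0.85) was -0.44 without RVM saline array 1. On that array the Gabrd ratio was the fourth in size among 100 measured features.

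In the dorsal horn Gabrd was measured on every left array, at 1.77, -0.45, -0.008, -0.054 and 0.069, and on 1 right array, at -0.24. Apart from left array 1, all of these lay within 0.5 of 0, and the sides could not be compared. Between regions, PAG carrageenan was lower than RVM carrageenan by 0.68 in the mean (difference -0.68, 95% interval -2.59 to 1.23, limma adjusted p = 0.771), a sign that quantile normalization turned (0.91).

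Gabre, the epsilon subunit, is represented by a pair of features annotated to the same transcript accession, and these were kept apart. Feature 74 gave 0.20, 0.95, 1.71, 1.70 and -0.29 on PAG carrageenan arrays 1 to 5. On PAG saline arrays 1 to 4 it gave -0.69, 5.40, 0.018 and -0.009. Of the carrageenan arrays 4 of 5 were above 0, and of the saline arrays 2 of 4, yet the single value of 5.40 put the saline mean (1.18 ± 2.83, n = 4) above the carrageenan mean (0.85 ± 0.89, n = 5). The difference was -0.33 (95% interval -3.11 to 2.46, limma adjusted p = 0.911). It turned to 1.08 without PAG saline array 2 (unadjusted p = 0.0705, limma adjusted p = 0.348) and to 0.046 under quantile normalization, so no direction is given for it.

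Feature 60 of Gabre gave -0.16, 1.17, -0.82, 0.46 and 0.37 in PAG carrageenan, and 2.81, -0.11 and -0.52 on PAG saline arrays 2, 3 and 4. The groups overlapped, with a difference of -0.52 (95% interval -2.41 to 1.37, limma adjusted p = 0.831). On PAG saline array 2 both Gabre features were at their highest within the saline group.

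In RVM the Gabre features parted. Feature 74 was small and mostly above 0, at 0.55, 0.18, 0.23 and 0.023 on carrageenan arrays 1 to 4, and at 0.044, 1.15, -0.49 and 0.31 on saline arrays 1 to 4. The means were 0.24 ± 0.22 and 0.25 ± 0.68 (n = 4 each), and their difference of -0.009 (95% interval -0.81 to 0.79, limma adjusted p = 0.997) changed sign with median centring (0.0036) and quantile normalization (0.30). Feature 60 was measured on RVM carrageenan array 5 alone, at 10.459, and on every saline array, at 0.011, 1.79, 2.38 and 1.77. The value of 10.459 was the highest in the whole table and the second in size of 2818 measured values, and feature 74 was not measured on that array, so it has no second reading. Taken alone, the RVM saline arrays averaged 1.49 ± 1.02 on feature 60 (n = 4, above 0 on 4 of 4, 95% interval 0.27 to 2.70, unadjusted p = 0.0266, limma adjusted p = 0.229). In that fit 21.3% of 127 features had an unadjusted p below 0.05 and 0.787% were called.

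In the dorsal horn feature 74 read 0.66, -0.25, 0.082 and -0.074 on left arrays 1, 2, 4 and 5, against -0.005, 0.010 and 0.28 on right arrays 2, 3 and 4. The difference between the sides was 0.011 (95% interval -0.65 to 0.67, limma adjusted p = 0.968), and its sign turned with median centring and quantile normalization. Feature 60 was measured on all left arrays, at 0.90, -0.010, 0.74, 2.08 and -0.23, and on 1 right array, at 1.90.

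Over the 17 arrays that measured both Gabre features, the signs matched on 12 (70.6%) and differed on 5. For comparison, the median share over 20 pairs of features of the same gene, from 13 genes and with at least 10 shared arrays, was 52.9%. Feature 74 was the higher one on 8 of the 17 arrays, and the difference between both readings ran from -2.87 to 2.60. Pearson's r was 0.363 and Spearman's rho 0.213, and r was 0.062 without the 2 arrays farthest from the median of feature 60. These points share the array and its uninjected control, and the correlation is a description only.

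**Figure D2:**
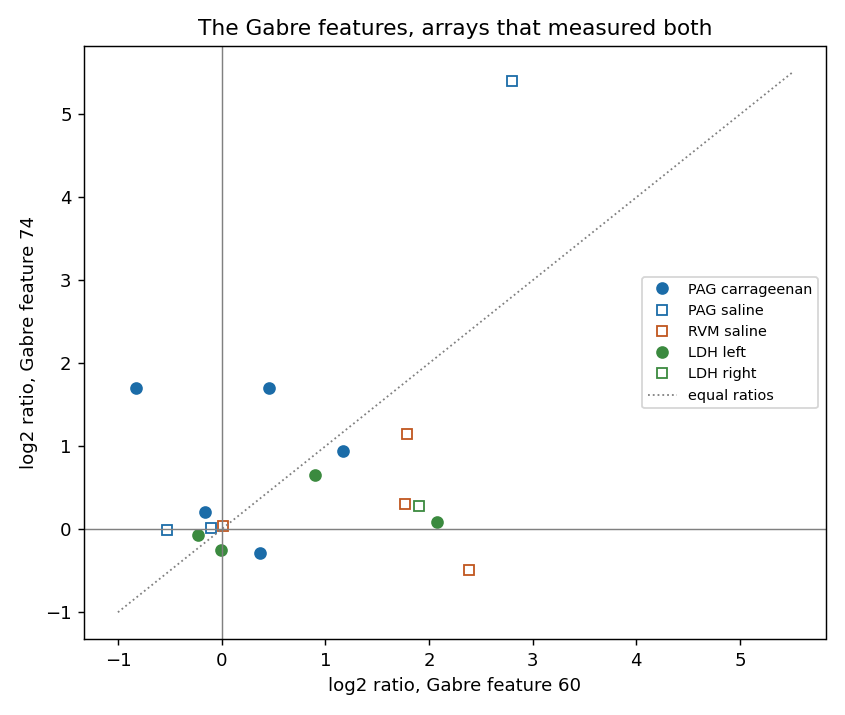
Each point is 1 of the 17 arrays that measured both Gabre features, with the log2 ratio of feature 60 on the horizontal and that of feature 74 on the vertical axis, coloured by region. PAG saline array 2 lies at the top, at 2.81 and 5.40, and the RVM saline arrays lie mostly to the right of the line of equal ratios. No RVM carrageenan array measured both.

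Gabrq, the theta subunit, was the subunit measured on the most arrays and lay above 0 on 21 of 27. In PAG carrageenan its ratios were 0.11, 0.34, 0.33, 0.30 and 0.058, all above 0. In PAG saline, arrays 1 to 4 gave -0.041, 0.20, -0.026 and -0.24, so that 1 of 4 was above 0 and the groups overlapped. The means were 0.23 ± 0.13 (n = 5) and -0.025 ± 0.18 (n = 4). Their difference was 0.25 (95% interval -0.049 to 0.56, unadjusted p = 0.0894 by limma, exact permutation p = 0.0556, limma adjusted p = 0.432), positive under every alternative tried, from 0.18 to 0.33, and not called by any of them.

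In RVM the theta subunit lay the other way. Carrageenan arrays 1 to 5 gave 0.32, 0.42, 0.14, -0.30 and -0.50, and saline arrays 1 to 4 gave 0.060, 2.41, 0.16 and 0.29. All saline arrays were above 0, and 3 of 5 carrageenan arrays were. The difference was -0.71 (95% interval -1.86 to 0.44, limma adjusted p = 0.766), of which most came from saline array 2, since without it the difference was -0.15. The carrageenan minus saline difference was larger in PAG than in RVM by 0.97 (95% interval -0.16 to 2.09, unadjusted p = 0.0863, limma adjusted p = 0.515), so a difference between the regions was not established. Without RVM saline array 2 that value was 0.41.

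In the dorsal horn nearly all theta ratios were above 0. Left arrays read 0.64, 0.37, 0.51, -0.14 and 0.60, and right arrays 1.41, 0.21, 0.049 and 0.34, with 8 of the 9 above 0. The left mean was 0.40 ± 0.32 (n = 5) and the right mean 0.50 ± 0.61 (n = 4). The sides differed by -0.11 (95% interval -0.82 to 0.61, limma adjusted p = 0.856), and by 0.19 without right array 1, which measured 7 features.

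Against the uninjected controls, Gabrq was above 0 on 5 of 5 PAG carrageenan arrays (mean 0.23, 95% interval 0.027 to 0.43, unadjusted p = 0.0308, limma adjusted p = 0.109), and 37.2% of the 78 features tested there also lay on 1 side of 0 on every array that measured them. It was above 0 on 4 of 4 RVM saline arrays (mean 0.73, and 0.17 without RVM saline array 2, limma adjusted p = 0.28), where 37.5% of 56 features did so. On the 4 right LDH arrays it was again always above 0 (mean 0.50, and 0.20 without right array 1, limma adjusted p = 0.557), where the share was 37.9% of 29. Gabre feature 74, on 4 of 4 RVM carrageenan arrays above 0 (mean 0.24, limma adjusted p = 0.964), met a share of 25% of 56. Gabre feature 60, tested in RVM saline only with that group alone, was above 0 on 4 of 4, as 42.5% of 127 features lay on 1 side of 0 there. Such runs of signs were common on these arrays, but the shares are not like for like. They count all features with 3 or more measured arrays, and features with fewer arrays lie on 1 side of 0 more easily. The serotonin transporter Slc6a4, a marker of serotonin neurons, was itself at 0.88 ± 0.39 (n = 4, limma adjusted p = 0.0224) in PAG carrageenan and at 0.48 ± 0.19 (n = 3, limma adjusted p = 0.383) in PAG saline, both over uninjected. In RVM, Slc6a4 was at 0.19 ± 0.23 (n = 3) with carrageenan and at -0.17 ± 1.95 (n = 2) with saline. The other marker on the array, the noradrenaline transporter Slc6a2, went both ways in PAG carrageenan. It was at -1.38 ± 1.04 on feature 203 (n = 5) and at 0.29 ± 1.20 on feature 204 (n = 4). The part of these markers in the Gabrq ratios was not tested.

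Gabrr1, which encodes rho1, was the subunit closest to 0 by the median size of its ratios. Its ratios were -0.019, 0.11, -0.19, 0.10 and -0.005 in PAG carrageenan, and 0.064, 0.016, -0.003 and -0.023 on PAG saline arrays 1 to 4. The groups overlapped throughout, with a difference of -0.013 (95% interval -0.26 to 0.23, limma adjusted p = 0.942). RVM carrageenan arrays 1 and 3 gave 0.23 and -0.58, and RVM saline arrays 0.019, 0.035, -0.11 and -0.049. With 2 carrageenan arrays RVM was not tested with the main settings, and with the looser minimum of 2 the difference was -0.15 (95% interval -0.88 to 0.59, limma adjusted p = 0.874).

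Of 23 measured Gabrr1 ratios, 20 lay within 0.25 of 0, against 39.2% of all measured values. Its median size of 0.064 was below that of all but 3 of the 121 features measured on at least 10 arrays. Both ratios beyond 1 in size were in the dorsal horn and below 0. Left LDH arrays gave -1.40, -0.22, 0.002, -0.007 and 0.083, and right arrays 2, 3 and 4 gave -2.39, -0.11 and 0.004. The sides differed by 0.52 (95% interval -0.91 to 1.96, limma adjusted p = 0.854). The arrays with these values, left array 1 and right array 2, had the widest spread of ratios of all arrays, with an SD of 2.04 and 2.36 over their measured features.

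**Figure D3:**
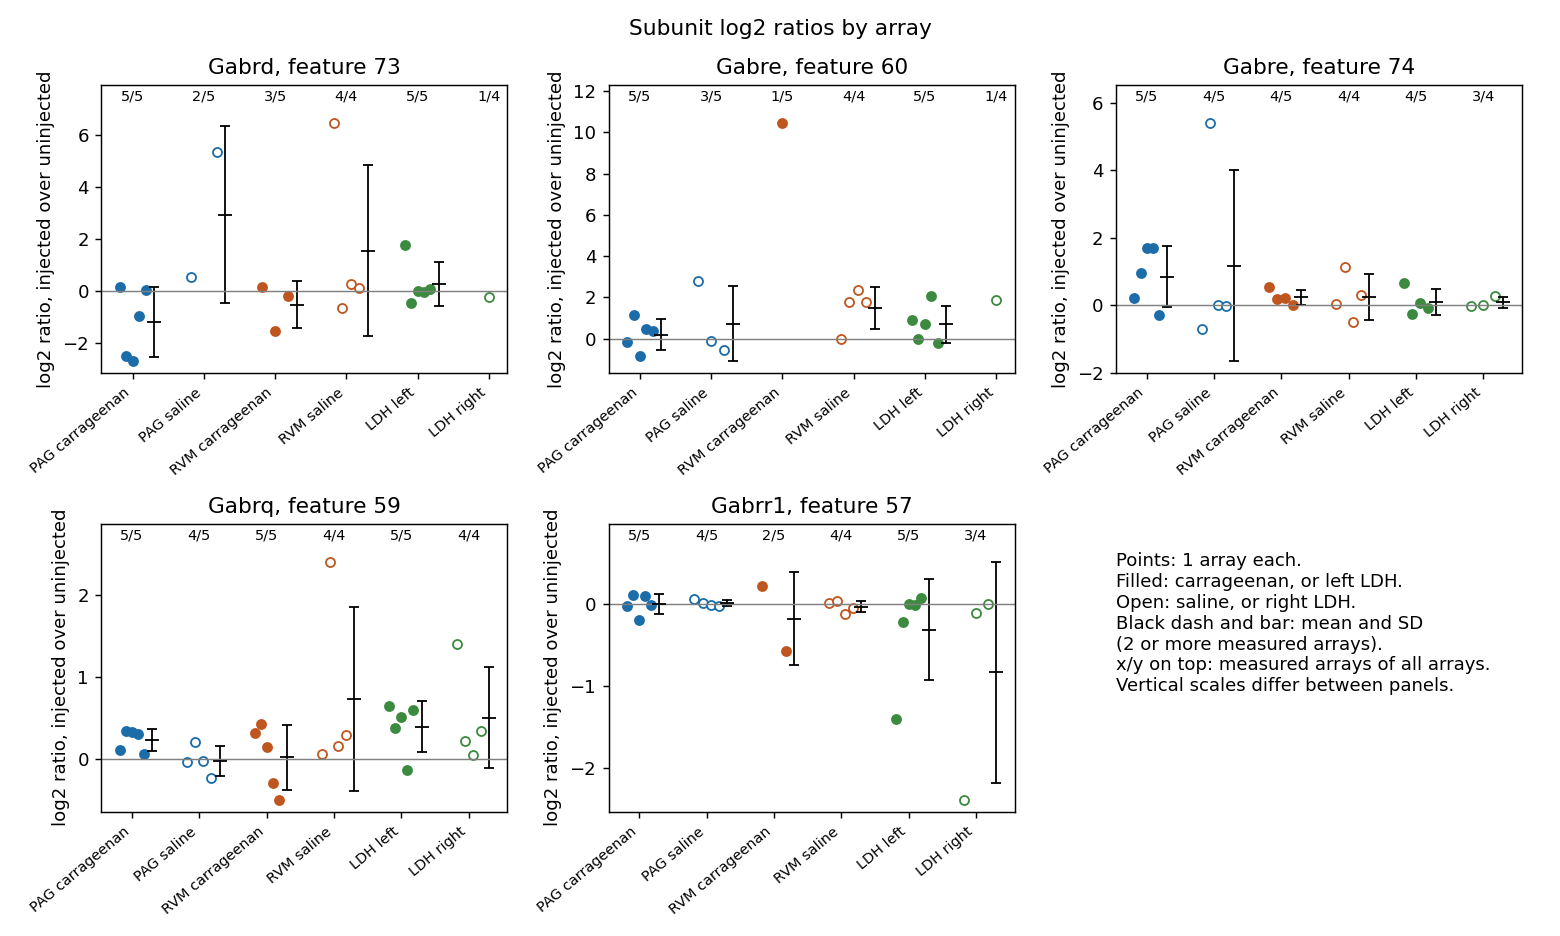
Log2 ratios of each subunit feature (1 panel each, with its own vertical scale) by group, 1 point per measured array, with the mean and SD at the side and the number of measured arrays on top. Gabrr1 stays near 0 except for 1 array on each side of LDH and RVM carrageenan array 3 (-0.58). Gabrd and Gabre feature 60 have single arrays at 5.35, 6.46 and 10.459.

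Set in order of their group means, no 2 neighbouring groups of any subunit feature differed by more than the larger of their SDs, counting groups with at least 2 measured arrays. For Gabrd the order ran from PAG saline (2.94) through RVM saline (1.55), left LDH (0.26) and RVM carrageenan (-0.53) to PAG carrageenan (-1.21). The theta subunit ran from RVM saline (0.73), right LDH (0.50) and left LDH (0.40) to PAG carrageenan (0.23), RVM carrageenan (0.017) and PAG saline (-0.025). Gabrr1 ran from PAG saline (0.014) to right LDH (-0.83). On Gabre feature 74 PAG saline (1.18) and PAG carrageenan (0.85) came first and right LDH (0.093) last, and on feature 60 RVM saline (1.49) came first and PAG carrageenan (0.20) last.

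Counts and medians of the tested subunit features stand here beside those of all features, with no test between them. In the 3 comparisons that follow, the subunit median, over 3 or 4 features, was lower than the median of all features. The other comparisons went both ways. The subunit median was higher in PAG carrageenan minus RVM carrageenan (0.211 against 0.116) and lower in PAG saline minus RVM saline (-0.357 against -0.042). So few features make a median fragile: that of RVM carrageenan minus saline is the Gabrq difference, which was -0.15 without RVM saline array 2. In PAG carrageenan minus saline, 1 of 4 subunit features tested was above 0 and their median was -0.17, against 59% of 78 features above 0 and a median of 0.135. None was called, as was the case for 0% of all features by adjusted p, and none had an unadjusted p below 0.05, against 12.8% of all. In RVM carrageenan minus saline, 0 of 3 were above 0 (median -0.712), against 37.5% of 56 (median -0.097), with 0% of all features called and 7.14% below an unadjusted 0.05. Between left and right LDH, 2 of 3 were above 0 (median 0.011), against 58.6% of 29 (median 0.185), and 0% were called. By limma 10, 4 and 0 features had an unadjusted p below 0.05 in these 3 comparisons, none of them a subunit.

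The regions were also set against each other within each injection. In PAG carrageenan minus RVM carrageenan, Gabrq differed by 0.21 (95% interval -0.23 to 0.65), and by 0.13 or 0.081 without RVM carrageenan array 4 or 5. With other single arrays left out it reached 0.31. Gabre feature 74 differed by 0.61 (95% interval -0.39 to 1.61), and by 0.40 without PAG carrageenan array 3 or 4. Leaving out other single arrays took that difference up to 0.90. In this comparison 0% of 59 features were called and 5.08% were below an unadjusted 0.05. In PAG saline minus RVM saline, Gabrq differed by -0.75 (95% interval -1.995 to 0.49) and by -0.20 without RVM saline array 2. Gabrr1 differed there by 0.041 (95% interval -0.18 to 0.26). Gabre feature 60 differed by -0.76 (95% interval -3.11 to 1.58) and feature 74 by 0.93 (95% interval -2.22 to 4.07), a value that turned to -0.48 without PAG saline array 2. None of the subunit features passed or had an unadjusted p below 0.05, while 0% of 72 features were called and 9.72% had such a p. In the interaction of region and injection 0% of 48 features were called and 6.25% were below an unadjusted 0.05, none of them a subunit.

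**Figure D4:**
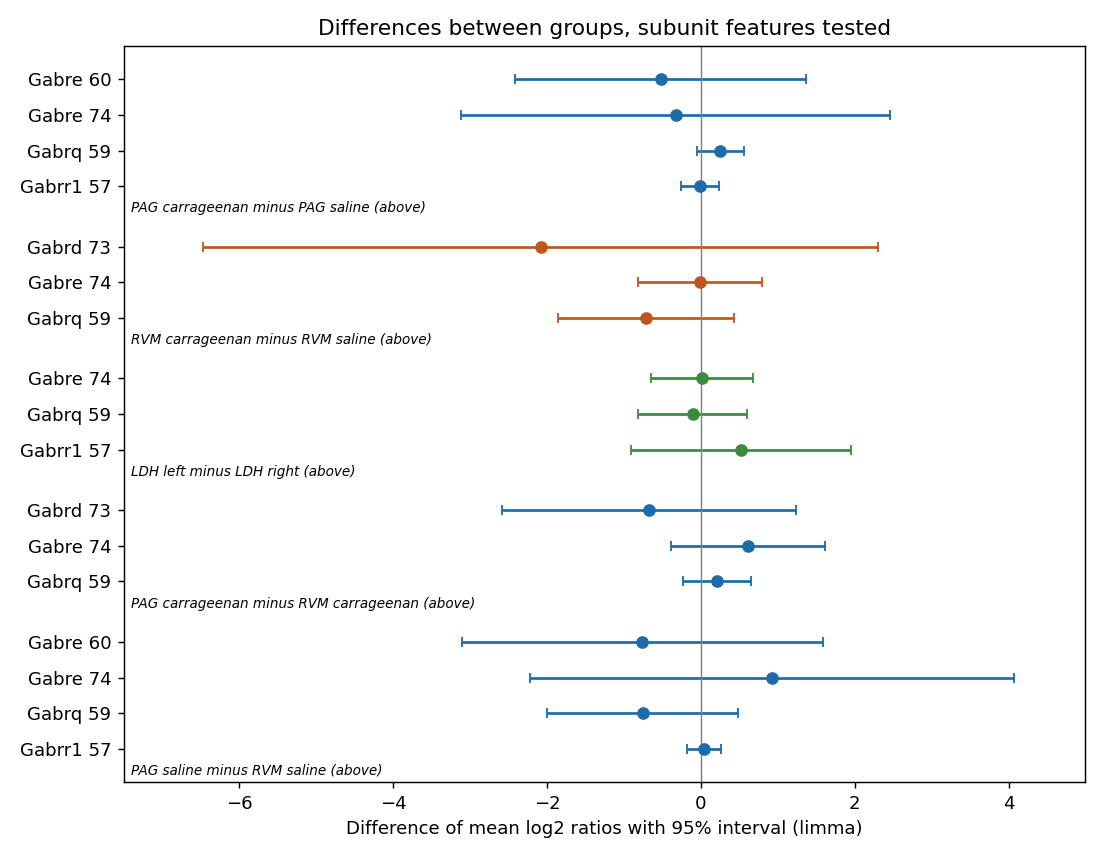
Difference of the mean log2 ratios for each subunit feature that could be tested, in 5 comparisons between groups, with the 95% interval from limma. All intervals include 0. Those of Gabrr1 in PAG and between PAG saline and RVM saline are the narrowest, and that of Gabrd in RVM, from -6.46 to 2.30, is the widest.

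Against uninjected controls, 14.1% of 78 features were called by limma in PAG carrageenan, and none of the 4 subunit features tested was among them. The called share was 0% in PAG saline, 1.79% of 56 in RVM carrageenan, 5.36% in RVM saline, and 0% in left and right LDH, again with no subunit. At an unadjusted 0.05, 1 of 4 subunit features (Gabrq) stood against 33.3% of all features in PAG carrageenan. In the other groups 0 of the subunit features tested did, against 11.5% in PAG saline, 8.93% in RVM carrageenan, 23.2% in RVM saline, 17.2% in left LDH and 3.45% in right LDH. The exact sign-flip test called 0 features in all 6 groups, but the smallest p it allows is 0.0625 with 5 arrays, 0.125 with 4 and 0.25 with 3. Of the intervals, that of Gabrr1 was the tightest, from -0.16 to 0.16 around a mean of 0.0002 in PAG carrageenan and from -0.17 to 0.20 in PAG saline, and the sign of that PAG carrageenan mean turned with median centring (-0.035) and quantile normalization (-0.032).

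Other genes of GABA signalling were taken from a list of 35, of which 14 are on the array with 21 features. These are 9 further GABA-A or rho subunits, the GABA-B subunit Gabbr1 with 8 features, both GABA-synthesising enzymes (Gad1 and Gad2) and the GABA transporters Slc6a11 and Slc6a13. The other 9 channel subunits were measured on 4 to 20 arrays. Gabra5 (20 arrays) and Gabra2 (13 arrays) were the only ones among them measured often enough to enter a test. Gabra3, whose gene lies between Gabre and Gabrq in the RefSeq annotation (assembly GRCr8), was measured on 11 arrays with a median of -2.34, and Gabrr2, the immediate neighbour of Gabrr1, on 8 arrays with a median of 0.25. The medians of Gabre (0.13 on feature 74 and 0.74 on feature 60) and Gabrq (0.21) were closer to 0 than that of Gabra3, over partly different arrays.

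In PAG carrageenan minus saline 7 features of this list were tested, 0 were called, and 2 were above 0 (median -0.088, against 0.135 over all features). The smallest p-values belonged to Gabbr1 feature 76 (-1.71), Slc6a13 (1.47) and Gabra2 (-0.45, 95% interval -1.34 to 0.45), with limma adjusted p of 0.333, 0.333 and 0.526. In RVM 3 were tested and 0 called, with Gabbr1 features 76 and 37 at 0.82 and -0.29 and Gad2 at -0.023. In LDH Gabbr1 feature 76 alone was tested, at 0.26 (limma adjusted p = 0.854). In PAG carrageenan minus RVM carrageenan, 4 were tested and 0 called, the leading ones being Gabbr1 features 76 (-1.31) and 37 (0.78) and Gad2 (-0.39). In PAG saline minus RVM saline, 4 were tested and 0 called, led by Gabbr1 feature 76 (1.22), Gad2 (-0.32) and Gabbr1 feature 36 (-1.19). Against uninjected controls 1 of 7 was called higher (Slc6a13, 1.21) and 1 lower (Gabbr1 feature 76, -1.57) in PAG carrageenan, and 1 of 3 lower (Gabbr1 feature 76, -1.08) in RVM saline, where 14.1% and 5.36% of all features were called. The features of Gabbr1 did not run the same way: feature 37 was at 0.85 in PAG carrageenan (95% interval 0.15 to 1.54, limma adjusted p = 0.109) and at 0.36 in RVM saline (limma adjusted p = 0.586), and feature 36 was at -0.36 in PAG carrageenan (limma adjusted p = 0.192).

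The features whose ratios ran most like those of each subunit were named by Pearson's r over arrays that measured both, with at least 10 such arrays. For Gabre feature 74 these were Gabra5, the alpha5 subunit (r = 0.791, rho = 0.523, 19 arrays), an unnamed feature, 199 (r = 0.708, 19 arrays), and Slc6a13, a GABA transporter (r = 0.694, rho = 0.825, 15 arrays). Without the 2 arrays farthest from the median of Gabre feature 74, r was 0.644 with Gabra5, 0.352 with feature 199 and 0.828 with Slc6a13. Over the 120 features compared, the median r with Gabre feature 74 was 0.051. For Gabre feature 60 they were the interleukin 9 receptor Il9r (0.831), the histamine receptor Hrh4 (0.797) and the serotonin receptor Htr5b (0.733), and r became -0.317, -0.099 and 0.675 without the 2 farthest arrays.

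Gabrq ran most like Pdyn, the dynorphin precursor (r = 0.756, 17 arrays), Tacr3, a tachykinin receptor (0.709, 19 arrays), and Tac1 feature 55, the substance P precursor (0.688, 23 arrays), and these became -0.030, 0.383 and 0.362 without the 2 farthest arrays. Gabrr1 ran most like the glutamate receptor genes Grm2 (0.924, 11 arrays), Grin1 (0.776, 13 arrays) and Grm4 (0.698, 18 arrays), which became -0.063, 0.299 and 0.028. For Gabrd they were the unnamed feature 189 (0.518), the somatostatin receptor Sstr5 (0.518) and the unnamed feature 4 (0.503), which became 0.393, -0.461 and -0.643. Between features of different subunit genes, r ran from -0.388 to 0.193. The lowest was that of Gabrd with Gabre feature 74 (rho = -0.505, 19 arrays), and r became -0.548 without the 2 arrays farthest from the median of Gabrd and -0.222 without those farthest from the median of Gabre feature 74. The highest was that of Gabrq with Gabre feature 74 (rho = 0.44, 24 arrays), where r became 0.182 without the 2 arrays farthest from the median of Gabrq and 0.503 without those farthest from the median of Gabre feature 74. All these values share arrays and controls and are descriptions without a test.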

How the data were processed

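The authors deposited 1 table of log2 ratios, 1 value per feature and array, from 2 dyes per array, per the labels; base 2 was inferred. Per the labels' protocols, TRIzol-extracted RNA (5 µg per sample) went into a 3DNA kit and onto custom arrays for 205 genes. Scanning, spot filter, background correction and normalization are not given in the sources used here. Exact zeros were treated as not measured, and values were used as deposited, without centring. Names came from the platform annotation, brought up to date with RefSeq symbols (GRCr8; 202 of 228 features named), and all 4 subunit genes matched. No build is given for the array, so no coordinates are printed.

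Each comparison was fitted on its own groups with limma 3.58.1 in R 4.3.3 (lmFit, then eBayes; two-sided; no covariates) with Benjamini-Hochberg adjustment over all features tested at 0.05, after a test on simulated data. The interaction used the 4 PAG and RVM groups, and a group against uninjected controls was tested as its mean against 0, both groups of a region sharing 1 fit. The controls' own spread enters such a test only as far as it made the ratios differ among arrays. Alternatives were zeros kept, a minimum of 2 arrays, median centring, quantile normalization, 1 fit of all 6 groups, the group alone, a replicate block, exact permutation, each array left out and, chosen after seeing the data, leaving out arrays with fewer than 40 measured features. Named genes were all features of the subunits, the passing or 3 smallest-p features of a GABA list, and the 3 features with the highest r. The members and lists were chosen with earlier results of these data known. The number of arrays limits the precision.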

Additional observations from a re-analysis of the deposited data

Results flagged for a closer look

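Of 21 sets of 4 or 5 measured arrays of a subunit feature in a group, 5 held an array flagged by Dixon's rule. The rule flags an array whose gap to its nearest neighbour, as a share of the range of the set, exceeds a critical value. For independent, normally distributed values chance flags about 1 set in 20. Other features were not put through the rule, so these flags cannot be called particular to the subunits. In RVM saline, Gabrd read 6.458 on array 1 (gap 0.87 of the range) and Gabrq 2.406 on array 2 (gap 0.901). In PAG saline, Gabre feature 74 read 5.401 on array 2 (gap 0.884). In left LDH, array 1 stood apart both upwards for Gabrd at 1.767 (gap 0.765) and downwards for Gabrr1 at -1.402 (gap 0.797). The SD of all measured ratios was 1.92 and 1.60 on RVM saline arrays 1 and 2, 1.69 on PAG saline array 2 and 2.04 on left LDH array 1, while the 28 arrays ran from 0.55 to 2.36; the part of array spread in these values was not tested. Values of 5.345 (Gabrd, PAG saline array 3), 10.459 (Gabre feature 60, RVM carrageenan array 5) and -2.392 (Gabrr1, right LDH array 2) lie in sets of 3 or fewer, which were not tested here.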

How the results depend on the processing

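In all 12 comparisons 0 subunit features were called, and this held under each alternative that gave a value (217 counts, 122 of them with 1 array left out). The smallest adjusted p under any alternative was 0.0737 by limma, for Gabrq in PAG carrageenan over uninjected with zeros kept. Differences changed sign in 11 of 264 values under other settings and 24 of 344 with 1 array left out; the cause was not tested. Gabre feature 74 went to 0.046 in PAG under quantile normalization, to 0.0036 and 0.30 in RVM and to -0.017 and -0.12 in LDH under median centring and quantile normalization. Gabrd in PAG carrageenan minus RVM carrageenan went to 0.91 (quantile), and Gabrr1 in PAG carrageenan over uninjected to -0.035 (median) and -0.032 (quantile). Without arrays of fewer than 40 measured features, Gabrq went to 0.19 in LDH and to -0.013 in RVM carrageenan over uninjected. With the replicate number as a block, 0 subunit features were called in 6 comparisons (smallest adjusted p = 0.372 by limma), and Gabre feature 74 in LDH went to -0.22. Of 22 same-numbered pairs, r of deviations ran from -0.779 (over 7 features) to 0.334, and 7 arrays correlated best with their own number. Correlations over so few and scattered values cannot decide whether arrays of the same number share an animal.

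With 1 array left out, carrageenan minus saline ran from -0.95 to 1.08 for Gabre feature 74 and from -0.041 to 0.034 for Gabrr1 in PAG, and from -0.26 to 0.29 for Gabre feature 74 in RVM. Left minus right LDH ran from -0.17 to 0.13 for Gabre feature 74 and from -0.26 to 0.19 for Gabrq. PAG saline minus RVM saline ran from -0.48 to 1.55 and the interaction from -0.94 to 1.09 for Gabre feature 74. Over uninjected, Gabrr1 ran from -0.027 to 0.047 in PAG carrageenan and from -0.0033 to 0.026 in PAG saline, and Gabre feature 60 from -0.038 to 0.46 in PAG carrageenan. Gabre feature 74 ran from -0.23 to 1.80 in PAG saline, from -0.046 to 0.50 in RVM saline and from -0.080 to 0.22 in left LDH. Gabrq ran from -0.10 to 0.045 in PAG saline and from -0.084 to 0.15 in RVM carrageenan, and Gabrd from -0.086 to 2.28 in RVM saline. Signal over background is not in the table, so its limit on single ratios is unknown.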
